A study of Mus musculus with 6 samples.

Results

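The cells described here were erythroid cells of the mouse fetal liver at embryonic day 14.5 (E14.5), divided by the size of their nuclei. A cell counted as erythroid when it held at least 8 transcripts of Slc4a1, the anion exchanger of the red cell membrane, and 0 transcripts of C1qa, C1qb and C1qc, the complement genes of the central macrophages. These criteria selected 48912 of the 117329 cells of the section, or 41.7%, out of 521938 cells in the whole series. The 25% with the largest nuclei were 12279 cells and the 25% with the smallest nuclei 12277 cells, called large-nucleus and small-nucleus cells below. Both groups were therefore chosen by measured values, namely nucleus area, Slc4a1 and C1q, and these values are given only as a description.

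The tissue came from wild-type C57BL/6 mouse embryos. It was fixed in formalin, embedded in paraffin, cut at 5 µm and imaged with the Xenium platform, which detects single RNA molecules in place with a panel of gene probes. The number of embryos behind the section was not given in the labels. The deposited values are whole-number transcript counts per gene and segmented cell. For comparison, the same criteria were applied to sections of E13.5 fetal liver, bone marrow at postnatal day 8 (P8), untreated adult spleen and the spleen of mice injected with phenylhydrazine (PHZ) at 40 mg per kg, a compound that destroys red cells. All of these mice were wild type.

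Erythroid progenitors carry the receptor Kit and respond to erythropoietin. As they mature into erythroblasts they divide a limited number of times, become smaller, fill with hemoglobin and condense the nucleus, which mammals expel before the cell becomes a reticulocyte. In the fetal liver, which is the main site of definitive erythropoiesis at midgestation, these stages lie side by side around macrophages. A section shows only the slice of a nucleus that lies in its plane, so a small outline can be a small nucleus or the edge of a large one, and these cannot be told apart here.

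Nuclei measured at least 35.6 µm² in the large group, with a median of 41.5 µm², and at most 22.4 µm² in the small group, with a median of 19.0 µm². The limits cut through a continuous distribution. The cell just outside the large group had a nucleus of 35.58 µm² and the first one inside 35.63 µm², and the cells on both sides of the lower limit measured 22.35 µm² and 22.40 µm². The Slc4a1 minimum also cut through a continuum, with 4089 C1q-free cells at 7 transcripts and 3998 at 8, whose median nucleus areas were 23.1 µm² and 23.7 µm². Many cells with Kit lay outside the erythroid criteria, either below that minimum or with C1q transcripts, which were not counted apart. Of 6921 cells of the section with at least 3 Kit transcripts, 1745 met the erythroid criteria. Of these, 1254 were in the large group and 87 in the small group.

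Cells with large nuclei were larger and held more RNA. The median cell area was 69.4 µm² with large nuclei and 34.9 µm² with small nuclei, and nuclei filled 57.2% and 40.3% of the summed cell area. A cell outline in this run was an expansion of the nucleus, so both areas are bound to move together. Gene transcripts averaged 278 per cell with large nuclei and 125 with small nuclei, a ratio of 2.230 (2.226 to 2.235, exact 95% interval, which covers counting error only here and below). The middle 50% of cells ran from 231 to 315 transcripts in the large group and from 99 to 146 in the small group, so these ranges did not overlap. The median number of genes detected was 61 with large and 39 with small nuclei. Per area of the cell the difference was smaller, at 3.61 and 2.79 transcripts per µm², a ratio of 1.30 (1.29 to 1.30). Over the nucleus itself there were 3.90 and 3.53 transcripts per µm². Negative controls, which match no mouse RNA, gave 0.0264 and 0.0128 counts per cell, and their ratio relative to all gene transcripts was 0.93 (0.76 to 1.13).

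Both groups were described with Rhd, Hbb-bt, Hemgn and Klf1, erythroid genes which were not used for the selection. Every cell of both groups held a transcript of at least 1 of these 4 genes, whose summed level was 160125 counts per 1000000 gene counts (CPM) with large nuclei and 172178 CPM with small nuclei. None of the 4 differed by 1.5-fold. The same sum was 148999 CPM in the 10 nearest neighbors of large-nucleus cells and 154945 in those of small-nucleus cells. Of these neighbors 48.6% and 49.3% met the erythroid criteria, so the sum sets the groups little apart from their surroundings. Slc4a1 itself averaged 18.8 transcripts per cell with large and 12.2 with small nuclei, which is 67523 and 97585 CPM. Transcripts of other cell types were also present in these outlines. The 20 hepatocyte genes averaged 20.1 transcripts per cell with large and 7.47 with small nuclei, and 97.7% and 85.9% of cells held at least 1 of them. None of the genes in the marker lists for hepatocytes, endothelium, stroma, macrophages, granulocytes, megakaryocytes or mesothelium was at 0 over the compared cells.

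With 1 section per condition, cells are not replicates and no test was made. Each gene was compared by the CPM of its counts summed over the cells of a group, and a gene is called higher or lower with large nuclei when the ratio reached 1.5-fold. Of 273 genes with at least 200 counts over both groups and outside the selection criteria, 52 were higher (19.0%) and 17 were lower (6.23%), while 204 lay between. The interval of the ratio excluded 1 for all 52 and all 17. This follows from the minimum of 200 counts and the 1.5-fold limit, and adds nothing to the calls. The median ratio over the 273 genes was 1.13. Counted per cell instead, 255 genes were at least 1.5-fold higher (93.4%) and 0 were lower (0%). Per µm² of cell area it was 121 and 5, and with Slc4a1 and Hbb-bt left out of the total 42 and 29. A further 200 genes of the panel had fewer counts. Among the called genes, 18 of the 52 and 11 of the 17 had under 1000 counts.

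**Figure D1:**
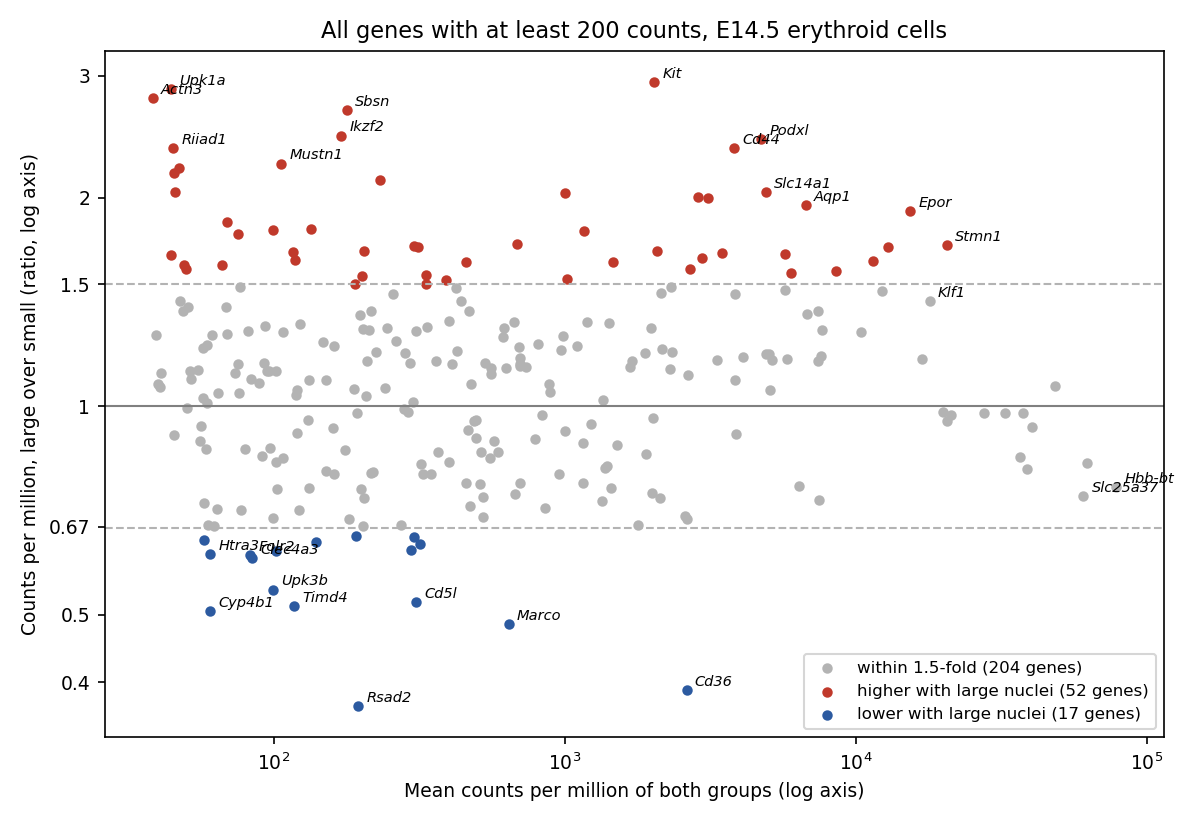
Each point is 1 of 273 genes, with its mean CPM over both groups on the horizontal log axis and its ratio, large over small nuclei, on the vertical log axis; dashed lines mark 1.5-fold. Kit has the highest ratio at 2.94, and Rsad2 and Cd36 lie lowest at 0.37 and 0.39.

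Genes of the erythroid program differed in direction. The receptors Kit and Epor and the progenitor surface protein Podxl were higher with large nuclei, and the fatty acid receptor Cd36 was lower. Of the 29 genes in 8 erythroid and cell cycle lists, all measured above the minimum, 13 were higher (44.8%, against 19.0% of all genes tested) and 1 was lower (3.45%, against 6.23%). Their median ratio was 1.47, against 1.13 over all genes tested. With each cell thinned to 100 counts they were 13 and 1, with a median of 1.43. Thinning draws at random from a cell's own transcripts and keeps its expected composition. Close values therefore follow from the method and show nothing about the part of depth. Groups matched for total count had nuclei that differed less (medians of 35.3 and 21.8 µm²). Between them 1 of the 29 was higher and 0 were lower, with a median of 1.14. Over all genes tested in that comparison, 17 of 272 were higher and 7 lower, with a median of 1.03. Where Slc4a1 had to reach 5% of a cell's counts, 5 of the 29 were higher and 1 was lower, with a median of 1.29. Over all genes tested in that selection, 12 of 264 were higher and 92 lower, with a median of 0.78.

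**Figure D2:**
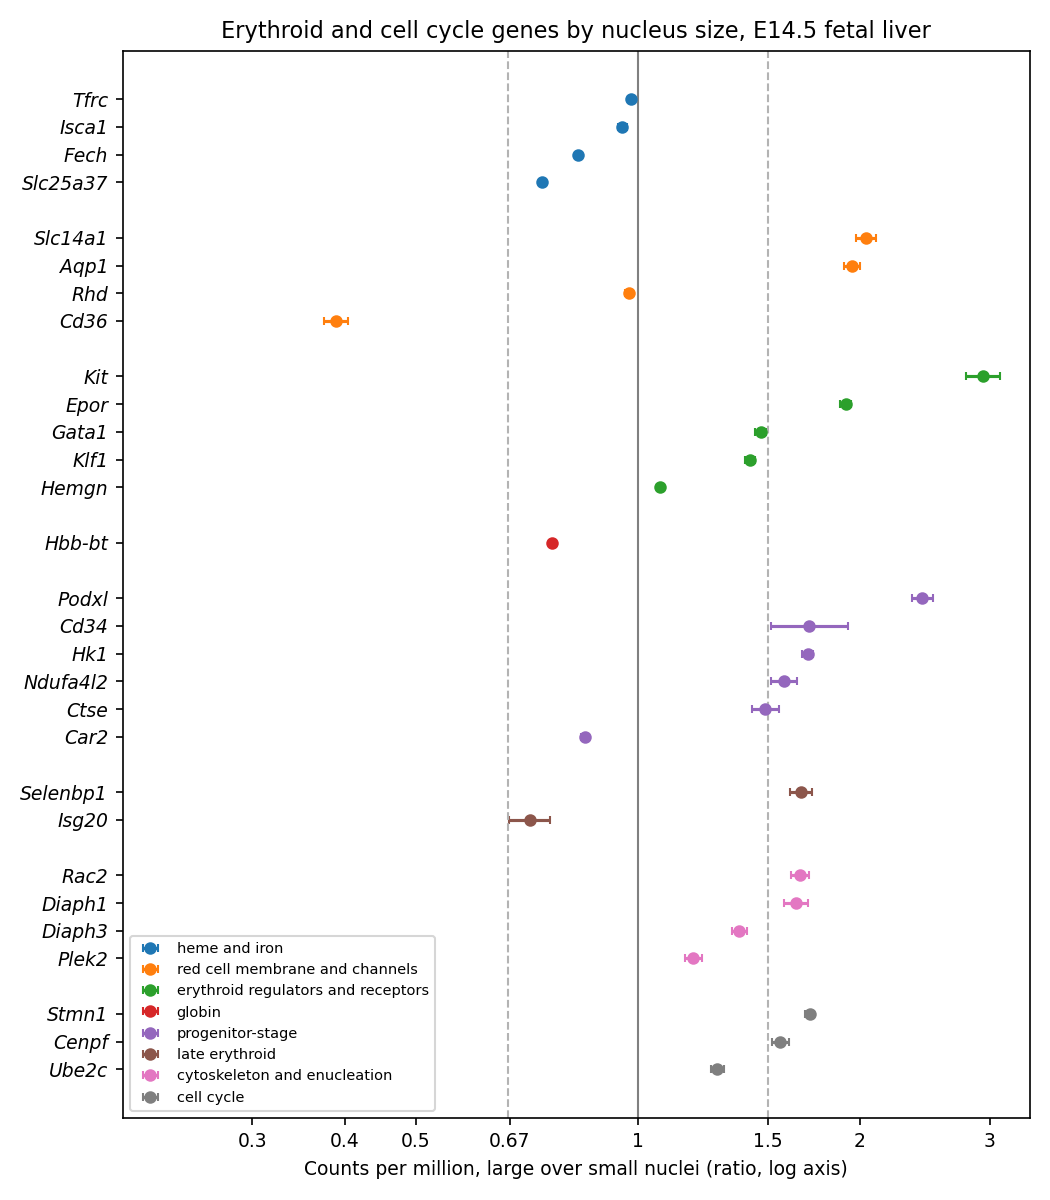
Ratio of CPM, large over small nuclei, for 29 genes grouped by list on a log axis; bars are exact 95% intervals for counting error and dashed lines mark 1.5-fold. Kit, Podxl, Slc14a1, Aqp1 and Epor lie near or above 2-fold, and Cd36 at 0.39 is the only one beyond the lower line.

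Both receptors were higher with large nuclei. Kit, the receptor for stem cell factor, had 3025 CPM with large nuclei and 1029 with small nuclei, a ratio of 2.94 (2.789 to 3.103). Per cell this was 0.841 and 0.128 transcripts. The Kit ratio was 1.16 where Slc4a1 had to reach 5% of a cell's counts, and the median over all genes tested there was 0.78. Kit was at 1.64 among the 815 large-nucleus and 3571 small-nucleus cells without any transcript of the macrophage list. This setting was chosen after the data had been seen. That list was detected in 93.4% of large-nucleus and 70.9% of small-nucleus cells, and most of its transcripts were Slc40a1, an iron exporter gene. The setting therefore cannot be read as the removal of macrophage transcripts alone. Epor, the erythropoietin receptor, had 20171 and 10547 CPM, a ratio of 1.91 (1.88 to 1.95). Of the transcription factors in the same list, Gata1 and Klf1, both master regulators of red cell genes, had ratios of 1.47 (1.44 to 1.49) and 1.42 (1.40 to 1.44) and stayed under the limit. Hemgn, a nuclear protein of blood progenitors, differed little, with 49928 and 46646 CPM.

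Among progenitor-stage genes, 4 of 6 were higher with large nuclei, against 19.0% of all genes tested. Podxl, a sialomucin of progenitor surfaces, had 6705 CPM with large and 2758 with small nuclei, a ratio of 2.43 (2.35 to 2.51). Cd34, an antigen of early blood progenitors, was rare, at 383 and 225 CPM, and its ratio was 1.71 (1.51 to 1.93). Hk1, a hexokinase, and Ndufa4l2, a mitochondrial protein, had ratios of 1.699 and 1.58. Matched for total count, 0 of the 6 were higher, with Podxl at 1.40, Cd34 at 1.36, Hk1 at 1.22 and Ndufa4l2 at 1.12. Over all genes tested in that comparison, 17 of 272 were higher, with a median of 1.03. With Slc4a1 at 5% of the counts Podxl alone of the 6 was higher, Hk1 and Ndufa4l2 were at 1.43 and 1.27, and Cd34 was on the other side at 0.72. In that selection 12 of 264 genes tested were higher and 92 lower, with a median of 0.78. The protease gene Ctse missed the limit at 1.49, and Car2, carbonic anhydrase 2, went the other way with 33789 and 39910 CPM.

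Membrane transporters were divided. The water channel Aqp1 had 8914 CPM with large and 4568 with small nuclei, a ratio of 1.95 (1.90 to 2.00), and the urea transporter Slc14a1 had 6579 and 3226, a ratio of 2.04 (1.98 to 2.10). Cd36, the receptor for long-chain fatty acids, had 1471 and 3776, a ratio of 0.39 (0.37 to 0.41). Cd36 was also less abundant per cell with large nuclei, at 0.409 against 0.471 transcripts, although these cells held 2.23 times as many transcripts in all. Rhd, a Rh blood group protein, had a ratio of 0.97. Matched for total count, 0 of these 4 genes were higher and 0 were lower, with Aqp1 at 1.22, Slc14a1 at 1.31 and Cd36 at 0.71. Over all genes tested in that comparison, 17 of 272 were higher and 7 lower. With Slc4a1 at 5% of the counts 2 of the 4 were higher and 1 was lower, against 12 and 92 of 264 genes tested.

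None of the 4 genes of heme and iron handling passed 1.5-fold, against 19.0% higher and 6.23% lower over all genes tested. All 4 had ratios below 1, from 0.74 (0.74 to 0.75) for Slc25a37, the mitochondrial iron importer, and 0.83 (0.82 to 0.84) for Fech, which inserts iron into heme, to 0.98 (0.97 to 0.99) for Tfrc, the transferrin receptor. Isca1, an iron-sulfur cluster protein, lay at 0.95. Per cell area Fech was at 1.07, Isca1 at 1.23 and Tfrc at 1.27. Tfrc was below 1 in 8 of the 13 alternatives that did not count per cell. These alternatives share cells, and some only rescale the ratio, so this is only a description. The adult beta-globin gene Hbb-bt had 68082 CPM with large and 89054 with small nuclei, a ratio of 0.76 (0.76 to 0.77). Hbb-bt has a near-identical neighboring copy whose transcripts may be included in its counts. Each of these 5 genes was higher per cell with large nuclei, by between 1.65-fold for Slc25a37 and 2.18-fold for Tfrc.

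The promoters of 4 genes that lay on different sides of this comparison are shown with the short motifs of the GATA and Krüppel-like factors, since Gata1 and Klf1 were measured beside them. RefSeq windows on GRCm38.p6, from 250 bases before to 50 after the start, were matched by symbol for 19 of the 29 list genes. Where a symbol had more than 1 window, the one with the lowest coordinate was taken, whatever the strand. Other starts of a gene were not searched. Both strands were searched for GATAA and for CACCC, and capitals mark the matches, which did not overlap and read TTATC and GGGTG where they lie on the other strand. Epor, on chr9:21963527-21963826 on the minus strand, and Klf1, on chr8:84901732-84902031 on the plus strand, had ratios of 1.91 and 1.42. Hbb-bt, on chr7:103813874-103814173 on the minus strand, and Cd36, on chr5:17835847-17836146 on the minus strand, had ratios of 0.76 and 0.39.
Epor: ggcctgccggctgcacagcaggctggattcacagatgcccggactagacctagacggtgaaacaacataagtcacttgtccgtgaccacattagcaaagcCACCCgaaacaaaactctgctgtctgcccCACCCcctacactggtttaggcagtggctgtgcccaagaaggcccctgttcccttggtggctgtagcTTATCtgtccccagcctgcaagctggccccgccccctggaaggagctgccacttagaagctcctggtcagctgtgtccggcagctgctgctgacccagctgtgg
Klf1: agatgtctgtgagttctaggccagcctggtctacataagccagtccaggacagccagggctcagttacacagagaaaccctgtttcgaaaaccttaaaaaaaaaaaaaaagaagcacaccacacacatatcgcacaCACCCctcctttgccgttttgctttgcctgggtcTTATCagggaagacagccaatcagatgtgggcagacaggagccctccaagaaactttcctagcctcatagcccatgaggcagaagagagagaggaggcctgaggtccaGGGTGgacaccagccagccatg
Hbb-bt: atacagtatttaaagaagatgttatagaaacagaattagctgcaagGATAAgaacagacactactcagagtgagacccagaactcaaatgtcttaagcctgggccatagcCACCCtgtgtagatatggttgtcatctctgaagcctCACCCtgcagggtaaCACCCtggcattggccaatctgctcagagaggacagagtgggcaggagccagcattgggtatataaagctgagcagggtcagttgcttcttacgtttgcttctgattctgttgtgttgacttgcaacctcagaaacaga
Cd36: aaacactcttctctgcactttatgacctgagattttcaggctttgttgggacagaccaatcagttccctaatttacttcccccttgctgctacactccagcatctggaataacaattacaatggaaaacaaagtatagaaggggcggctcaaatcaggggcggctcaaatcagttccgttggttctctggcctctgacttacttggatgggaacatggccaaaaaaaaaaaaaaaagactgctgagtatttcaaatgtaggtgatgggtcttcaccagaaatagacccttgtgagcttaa
The windows of Epor, Klf1 and Hbb-bt each held 1 GATAA and between 2 and 3 CACCC matches, and the Cd36 window held neither sequence. GATAA was present in 6 of the 19 list genes (31.6%) and in 25.9% of 27025 promoter windows of the genome, and CACCC in 13 of 19 (68.4%) and in 56.8%. Both were present in 5 of 19 (26.3%) and in 12.6%, so the 4 windows shown, 3 of which hold both, are not typical of the list. The windows of Kit, Aqp1 and Hk1, which were higher with large nuclei, held 0 GATAA. A match is only a description of the letters in the window.

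Of the 3 cell cycle genes, 2 were higher with large nuclei, where 19.0% of all genes tested were. Stmn1, which destabilizes microtubules and is abundant in dividing cells, had 26015 and 15220 CPM, a ratio of 1.71 (1.69 to 1.73). Cenpf, a kinetochore protein made in late interphase and mitosis, had 7315 and 4689, a ratio of 1.56 (1.52 to 1.60). Ube2c, which drives the exit from mitosis, had 11685 and 9115, a ratio of 1.28 (1.26 to 1.31) that did not reach the limit. Matched for total count, 0 of the 3 were higher, with Cenpf at 1.35, Ube2c at 1.31 and Stmn1 at 1.10. Over all genes tested in that comparison, 17 of 272 were higher, with a median of 1.03. With Slc4a1 at 5% of the counts Stmn1 was at 1.31, where the median over all genes tested was 0.78. In the list for cytoskeleton and enucleation, the GTPase Rac2 (1.66) and the formin Diaph1 (1.64) were higher, and the formin Diaph3 (1.37) and Plek2, a pleckstrin that acts on actin (1.19), were not. Rac2 and Diaph1 were at 1.17 and 1.21 matched for total count, and at 1.36 and 1.16 with Slc4a1 at 5% of the counts. The 2 genes listed as late erythroid went in opposite directions. Selenbp1, a selenium-binding protein, had a ratio of 1.66 (1.61 to 1.72) and Isg20, an exonuclease, had 0.71 (0.67 to 0.76). With Slc4a1 at 5% of the counts Selenbp1 was at 1.10, and matched for total count it was not higher by 1.5-fold.

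Levels were next followed over 10 bins of nearly equal size of all 48912 erythroid cells, ordered from bin 1 with the smallest nuclei (median 15.2 µm²) to bin 10 with the largest (49.1 µm²). The genes did not all move steadily with nucleus size. Kit stayed between 989 and 1257 CPM through bin 7, then reached 1545, 2045 and 4283 in bins 8, 9 and 10. Podxl had the same shape, with 3391 in bin 7 and 8787 in bin 10. Markers of other cell types were also higher in bin 10 than in bin 9, with hepatocyte genes at 81478 and 65425 CPM, endothelial genes at 12728 and 10345, macrophage genes at 14165 and 12280, megakaryocyte genes at 6987 and 5191, and granulocyte genes at 5583 and 4119. Most macrophage-list transcripts of large-nucleus cells were Slc40a1. Of the list's genes named here, Marco was at 357 and 447 and Timd4 at 70.1 and 81.6. Folr2 was at 56.7 and 61.8, and Cd5l at 201 and 194. The erythroid markers were at 146619 and 169446. The part of these cell types in the Kit and Podxl levels was not tested. Epor was higher at each of the 9 steps, from 10483 to 21381, and most of its change lay between bins 3 and 6, where it went from 10924 to 17150. Klf1 changed over the same range, from 15082 in bin 3 to 19516 in bin 6.

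Cd36 changed in the opposite direction over the same range. It had 4036 (3881 to 4195) CPM in bin 2 and 4025 in bin 3, then had 3118, 1979 and 1443 in bins 4, 5 and 6, and stayed between 1415 and 1625 from there to bin 10. Rsad2, an interferon-inducible antiviral gene, followed with 307 (266 to 353) in bin 2 and 119 in bin 6. Hbb-bt declined at each of the 9 steps, from 90174 to 63562.

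A further set was highest in the middle. Hemgn was highest in bin 6 at 57672 (57185 to 58162) and lower at both ends, at 46899 in bin 1 and 43603 in bin 10. Plek2 was also highest in bin 6, at 7011 (6842 to 7183), against 4520 and 4858 at the ends, and Rhd in bin 7, at 25015 against 20103 and 17827. Ratios of the large over the small group were thus near 1 for genes that varied across the range by more than counting error. The mitotic genes Ube2c and Cenpf were both highest in bin 8, at 12731 (12522 to 12942) and 7734 (7572 to 7899). Ube2c was at 8052 in bin 4 and at 9951 in bin 1, which is close to its 10676 in bin 10. Slc25a37, Fech and Isg20 were highest in bin 3.

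**Figure D3:**
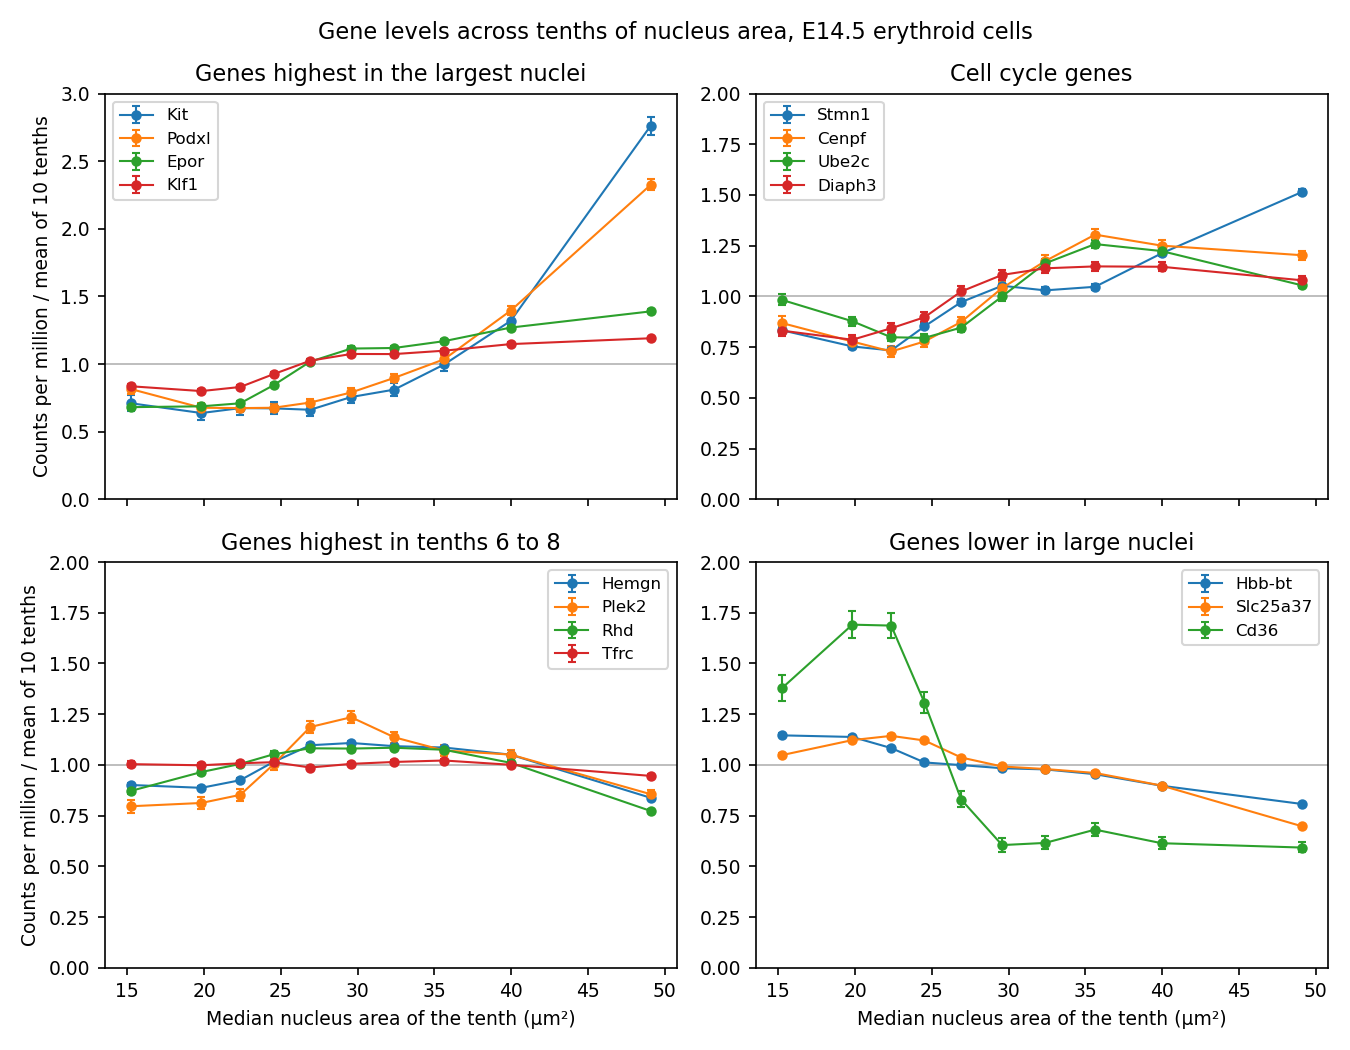
CPM in each bin of nucleus area, divided by the gene's mean over the 10 bins, against the median nucleus area of the bin in µm²; bars are exact 95% Poisson intervals. Kit and Podxl climb in the last 3 bins, Cd36 drops between 22 and 30 µm², and Hemgn and Plek2 are highest near 30 µm².

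The genes with the highest ratios joined Kit and Podxl with Cd44, the hyaluronan receptor whose loss is used to stage erythroblasts, and Ikzf2, a zinc finger transcription factor. Cd44 had 5347 and 2267 CPM with large and small nuclei, a ratio of 2.36 (2.27 to 2.45). Ikzf2 had 829 and 151 counts, a ratio of 2.46 (2.07 to 2.95). Others were detected rarely. Upk1a, Actn3, Sbsn, Riiad1 and Mustn1, most of which are known from epithelia or muscle, had between 193 and 885 counts in the 12279 cells with large nuclei and ratios from 2.24 to 2.87. For 4 of them, between 81.9% (Sbsn) and 91.7% (Riiad1) of the transcripts in large-nucleus cells lay over the nucleus, against 61.8% of all gene transcripts. Actn3, with 65.3%, was the exception. Counted only outside the nucleus, Actn3 was at 2.27, whereas Sbsn at 1.42, Upk1a at 1.39, Mustn1 at 1.15 and Riiad1 at 0.74 did not reach 1.5-fold. Counts outside the nucleus were few, and no intervals are given for these values. Matched for total count Actn3 was at 1.24, and with Slc4a1 at 5% of the counts Sbsn was at 1.39 and Mustn1 at 1.09. Each of the 5 passed 1.5-fold in 10 or 11 of the 12 or 13 alternatives that did not count per cell. Among these, a minimum of 5 detected genes kept the same 12279 and 12277 cells. Counting per cell area, or without Slc4a1 and Hbb-bt in the total, rescaled every ratio by the same factor. The genes were also chosen by their ratios in these cells, so the tally is only a description.

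The 10 genes with the lowest ratios were led by Rsad2, with 359 and 436 counts, which is 105 and 285 CPM and a ratio of 0.37 (0.32 to 0.43), and by Cd36. Of the others, 5 are known from macrophages. Marco, a scavenger receptor, had 419 and 864 CPM, a ratio of 0.48 (0.45 to 0.52), and Timd4, Cd5l, Clec4a3 and Folr2 had ratios from 0.51 to 0.61. Matched for total count, none of the 5 was lower by 1.5-fold, with ratios from 0.93 for Cd5l to 1.04 for Timd4. Over all genes tested in that comparison, 7 of 272 were lower. Per cell the 5 lay between 1.08 and 1.36. In the whole macrophage list without C1q, 12 of 14 genes were measured, 0 were higher and 6 were lower, with a median ratio of 0.66. Over all genes tested 19.0% were higher and 6.23% lower, with a median of 1.13. As a sum the list went the other way, with 13130 and 12286 CPM, a ratio of 1.07 (1.05 to 1.09), and with 3.65 transcripts per cell with large and 1.53 with small nuclei, most of it Slc40a1, the iron exporter ferroportin, which averaged 2.40 and 0.834. Among the 10 nearest neighbors of each cell, 24.2% held C1q transcripts around large nuclei and 27.7% around small nuclei. Both groups had to hold 0 C1q transcripts, which is a stricter demand on cells with more transcripts. Of 75028 cells with at least 8 Slc4a1 transcripts, 26116 held C1q and were left out. The part of this criterion and that of neighboring macrophages in these ratios were not tested. The remaining genes of this set, Upk3b, Cyp4b1 and Htra3, had between 115 and 239 counts in each group.

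Markers of other cell types moved with nucleus size as well. As sums of CPM, the hepatocyte list was at 72252 with large and 59940 with small nuclei (ratio 1.21), the granulocyte list at 4763 and 3969 (1.20), the megakaryocyte list at 5929 and 5366 (1.10), the endothelial list at 11449 and 13254 (0.86) and the stromal list at 8789 and 11645 (0.75). The mesothelial list, to which Upk3b belongs, was at 111 and 186, a ratio of 0.60 (0.51 to 0.70). Of the 18 hepatocyte genes measured, 1 was higher and 0 were lower, and of the 12 endothelial and 12 stromal genes, 0 were called, against 19.0% higher and 6.23% lower over all genes tested. The part of these cell types in the erythroid ratios was not tested.

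Erythroid cells of like nucleus size lay near each other. Among the erythroid cells within the 10 nearest neighbors of a large-nucleus cell, 30.4% belonged to the large and 22.2% to the small group. Around small-nucleus cells it was 20.5% and 31.5%, where 25.1% each would hold over the whole section. For Kit and Cd36 the neighbors differed less than the cells themselves. Kit had 2759 CPM in neighbors of large-nucleus cells and 2436 in neighbors of small-nucleus cells, a ratio of 1.13, and Cd36 had 2094 and 2605, a ratio of 0.80. Upk3b was at 0.48 among neighbors and 0.54 in the cells, the mesothelial list at 0.51 and 0.60, and the hepatocyte list at 1.17 and 1.21.

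Most of the named differences were present across the section. The section was divided into squares of 1000 µm, of which 12 held at least 200 cells of each group. This division was chosen after the data had been seen. Kit, Podxl, Cd44, Epor, Aqp1, Slc14a1, Gata1, Klf1, Stmn1 and Cenpf had a ratio above 1 in 12 of 12 squares, and Cd36, Rsad2, Hbb-bt, Slc25a37 and Fech below 1 in 12 of 12. The Kit ratio ran from 2.56 to 4.00, that of Epor from 1.76 to 2.18, and that of Cd36 from 0.27 to 0.81. Tfrc was above 1 in 4 squares and below 1 in 8. Some called genes were less even. Upk3b was above 1 in 4 squares, with ratios from 0.05 to 1.98. Cd34, Ikzf2 and Upk1a were each below 1 in 1 square, and Cyp4b1, Clec4a3, Folr2 and Htra3 each above 1 in 1 square. Squares of 1 section share the tissue and the run and are not replicates.

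Several ratios moved when the groups were formed in another way. Groups were first taken within 10 classes of the total count. Depth was then nearly equal, with 1.05 times as many transcripts per cell in the large group. Between these groups 17 of 272 genes tested were higher and 7 lower. The contrast in nucleus area was narrower there as well, at medians of 35.3 and 21.8 µm², and its part cannot be told apart from that of depth. Of the called genes, 14 and 4 were among the 52 and 17. In that comparison Kit was at 2.03, Ikzf2 at 1.95, Cd44 at 1.57, Podxl at 1.40, Epor at 1.38, Slc14a1 at 1.31, Aqp1 at 1.22 and Stmn1 at 1.10, while Cd36 was at 0.71, Rsad2 at 0.80 and Marco at 0.95. When each cell was thinned to 100 counts, the ratios were close to those of all counts, with Kit at 2.71, Cd44 at 2.22, Podxl at 2.21, Slc14a1 at 1.94, Aqp1 at 1.85, Epor at 1.85, Stmn1 at 1.63 and Cd36 at 0.40. This closeness follows from the method, since thinning keeps the expected composition of each cell, and it shows nothing about depth. A minimum of 8 Slc4a1 transcripts is a larger share of a small cell than of a large one. With a minimum of 5% of a cell's counts in its place, 12 of 264 genes tested were higher and 92 lower. The median ratio of all genes tested was 0.78, a shift of -0.53 on the log2 scale. In this selection Podxl dropped to 1.52, Cd44 to 1.41, Selenbp1 to 1.10, Ikzf2 to 0.996 and Cd34 to 0.72, whereas Epor at 1.86, Cenpf at 1.58, Cd36 at 0.41 and Rsad2 at 0.40 differed little from the values above.

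The same criteria were applied to the other sections, whose cells did not enter the ratios above. The P8 bone marrow held 8597 erythroid cells and the PHZ-treated spleen 9448, with groups of 2151 to 2377 cells. Cells with large nuclei again held more transcripts, 201 against 98.3 per cell in the bone marrow (2.04-fold) and 213 against 104 in the spleen (2.04-fold). In the bone marrow 34 of 149 genes were at least 1.5-fold higher (22.8%) and 4 were lower (2.68%), and in the spleen 9 of 146 were higher (6.16%) and 11 lower (7.53%). Of the genes higher in the fetal liver, 28 could be measured in the bone marrow, and 28 of 28 had a ratio above 1, with a median of 1.55 against 1.22 over all genes measured there. In the spleen it was 22 of 28, with a median of 1.30 against 0.96. Past 1.5-fold were 18 of the 28 in the bone marrow and 7 of the 28 in the spleen. Of the genes lower in the fetal liver, 6 of 7 lay below 1 in the bone marrow, 3 of them past 1.5-fold, with a median of 0.69. In the spleen 9 of 9 lay below 1, 2 of them past 1.5-fold, with a median of 0.79. Since the median over all genes measured was 1.22 in the bone marrow, most genes there lay above 1. In the spleen it was 0.96, so most lay below 1. The share of all genes on each side of 1 was not counted.

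Receptors kept their direction. Epor had ratios of 1.71 (1.61 to 1.82) in the bone marrow and 1.71 (1.64 to 1.79) in the spleen, and Kit 1.75 (1.499 to 2.053) and 1.90 (1.60 to 2.25), both lower than its 2.94 in the fetal liver. Cd44 had 1.59 and 1.58. Podxl differed between the sections, with 2.10 (1.96 to 2.25) in the spleen and 1.20 (0.90 to 1.62) in the bone marrow, where it was rare, at 375 and 312 CPM. Cenpf had 1.85 (1.71 to 2.01) in the bone marrow and 1.43 (1.34 to 1.53) in the spleen. Differences between the sections could not be tested with 1 section each.

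On the side of small nuclei, Cd36 had 7483 CPM with large and 14555 with small nuclei in the bone marrow, a ratio of 0.51 (0.49 to 0.54), and 8359 and 12812 in the spleen, a ratio of 0.65 (0.62 to 0.68). Rsad2 was far more abundant there than in the fetal liver, with 9414 and 20693 in the bone marrow, a ratio of 0.45 (0.44 to 0.47), and 19077 and 26210 in the spleen, a ratio of 0.73 (0.71 to 0.75). Across bins of nucleus area, Cd36 in the bone marrow was at 15673 in bin 3 and at 7370 in bin 7, and Hemgn was highest in bin 8 at 47944. Plek2 was highest in bin 7 in both sections, at 2664 and 12610. Rhd, below 1 in the fetal liver, had ratios of 1.29 in the bone marrow and 1.13 in the spleen, and Isg20 had 0.88 and 1.04.

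The E13.5 fetal liver was imaged on another, larger panel with stained cell boundaries, and only 619 of its cells met the criteria, with 155 large and 158 small nuclei. Epor had 115 and 41 counts there, a ratio of 1.46 (1.02 to 2.15), and Cenpf had 54 and 14, a ratio of 2.01 (1.10 to 3.93). Car2 had 2262 and 1303 counts, a ratio of 0.91 (0.85 to 0.97). The intervals of Klf1, Isca1, Tfrc, Hk1, Diaph1 and Diaph3 included 1, so differences were not detectable at this depth. The untreated spleen held 22 such cells, too few to compare.

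**Figure D4:**
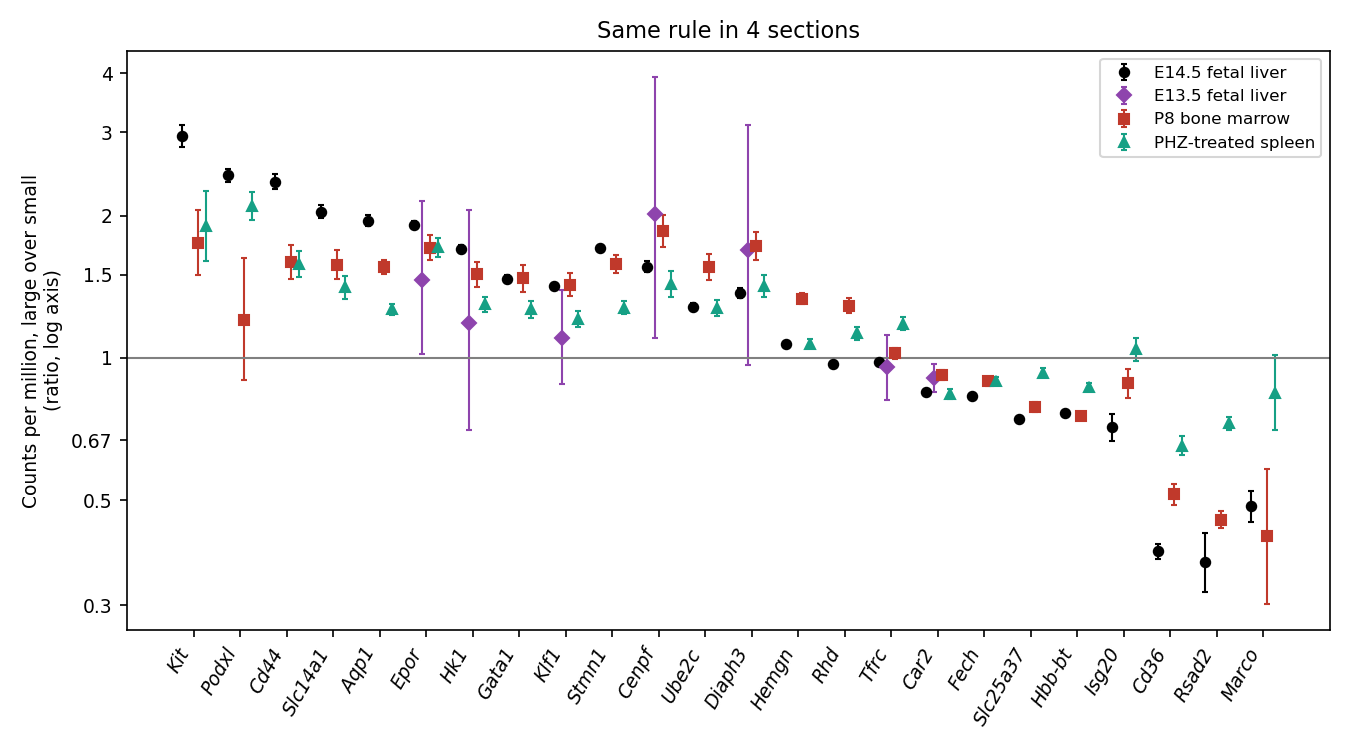
Ratio of CPM, large over small nuclei, on a log axis for named genes in the E14.5 and E13.5 fetal liver, the P8 bone marrow and the PHZ-treated spleen, with exact 95% intervals for counting error and no point where a gene had under 50 counts. Epor lies at 1.71 in the marrow and spleen, and Cd36 at 0.51 and 0.65.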

How the data were processed

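The authors deposited transcript counts per gene and segmented cell, without normalization, and the area of each cell and nucleus. The run descriptions name the instrument's own software, xenium 1.7.1.0 (3.1.0.4 for E13.5), whereas the paper names Space Ranger. The deposited quality score of each single transcript was used to count transcripts over the nucleus, and counts at a score of at least 20 equaled the deposited ones in every entry. All samples were grouped by their labels, with 1 section per condition, so only counting intervals are given, exact conditional binomial for ratios and exact Poisson for levels, at 95%. Doublets were not called and transcripts of neighbors were not removed. The members and gene lists were chosen with earlier results of these data known. Named were all genes of the erythroid and cell cycle lists and the 10 highest and 10 lowest ratios among genes with at least 200 counts, except for some genes that are not reported here. The minimum of 200 counts also held for calls in other sections, where named genes were shown from 50 counts. The aged bone marrow was not analysed here. Python 3.11.15 with numpy 2.4.6, scipy 1.17.1, pandas 2.3.3, shapely 2.1.2 and matplotlib 3.10.9 was used, and the ratio was tested on simulated data.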

Additional observations from a re-analysis of the deposited data

Results flagged for a closer look

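For 3 genes with at least 200 counts that were higher with large nuclei in the E14.5 fetal liver, the ratio of CPM went the other way in the PHZ-treated spleen, with a counting interval below 1. Cd274, an immune checkpoint ligand, had 1.80 in the fetal liver and 0.73 (0.61 to 0.88) in the spleen. Saa3, an acute-phase gene, had 1.78 and 0.72 (0.61 to 0.84). Csf3r, the receptor for granulocyte colony-stimulating factor, had 1.54 and 0.82 (0.68 to 0.999). Ikzf2, with 62 counts in the spleen, had 2.46 and 0.43 (0.25 to 0.73). The difference was not tested, since each condition had 1 section.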

How the results depend on the processing

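The counts of genes higher and lower with large nuclei, 52 and 17 out of 273, moved with most settings. They were 255 and 0 per cell and 121 and 5 per cell area, where the median of all genes shifted by 1.16 and 0.37 on the log2 scale. Without Slc4a1 and Hbb-bt in the total, 29 genes were lower, and outside the nucleus 23 of 214 genes tested were higher. With at least 16 Slc4a1 transcripts 33 and 6 of 206 were higher and lower. With Slc4a1 at 5% of the counts it was 12 and 92 of 264 (median shift -0.53), and within 10 classes of the total count 17 and 7 of 272. With cells thinned to 100 counts, which left out 5 large-nucleus and 3162 small-nucleus cells, 34 of 214 were higher. Within squares of 500 µm 11 of 271 were lower. Convex nucleus outlines, held by 73.3% of large and 57.1% of small nuclei, gave 31 and 43 of 236 (median shift -0.23). Cells without macrophage-list transcripts, most of which were Slc40a1, gave 28 and 8 of 135, with Kit at 1.64. This setting was added after seeing the data. A minimum of 1000 counts gave 34 and 6 of 175, no minimum 86 and 35 of 473, and a 2-fold limit 17 and 3 of 273. Counts out of different numbers of genes tested cannot be compared directly. The cause of these shifts was not tested. The ratio of transcripts per cell was 2.71 over the nucleus, 1.82 with at least 16 Slc4a1 transcripts, 2.91 for the top and bottom 10% and 2.21 within squares.

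For the 45 named genes, 623 values were compared. A turn to the other side of 1 was counted only for the 30 called genes, and 14 of their values turned. Genes that were not called crossed 1 as well, such as Fech at 1.85 per cell. Per cell, Marco was at 1.08, Cyp4b1 at 1.13, Timd4 at 1.15, Cd5l at 1.16, Upk3b at 1.21, Clec4a3 at 1.35, Folr2 at 1.36 and Htra3 at 1.36. Outside the nucleus Riiad1 was at 0.74. With Slc4a1 at 5% of the counts Cd34 was at 0.72 and Ikzf2 at 0.996. Within classes of the total count Timd4 was at 1.04, Clec4a3 at 1.04 and Htra3 at 1.02. Limiting the comparison to cells without any transcript of other cell types' lists left 2 large-nucleus and 190 small-nucleus cells and was not run. No paired analysis was possible because each condition had 1 section. Genes with few counts are limited by depth.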

Other observations

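The E13.5 panel held genes that the E14.5 panel lacked, and the following were chosen after their values were seen. Among 619 erythroid cells, Slc2a1, a glucose transporter, had 98 counts in the 155 cells with large nuclei and 168 in the 158 cells with small nuclei, a ratio of CPM of 0.30 (0.23 to 0.39). Alas2, the first enzyme of erythroid heme synthesis, had 698 and 629 counts, a ratio of 0.58 (0.52 to 0.65). On the other side, the histone gene Hist2h2bb had 1927 and 703 counts, a ratio of 1.43 (1.31 to 1.56), and the proliferation gene Mki67 had 676 and 272, a ratio of 1.30 (1.13 to 1.499). Alas2 lay under 1, as did the globin and iron genes at E14.5, and Mki67 above 1, as did the cell cycle genes. Other such genes at E13.5 had intervals that included 1. The heme enzyme gene Cpox was at 1.03 (0.91 to 1.16). The proliferation genes Pcna and Ccna2 were at 1.19 (0.92 to 1.56) and 1.24 (0.96 to 1.61). Slc2a1 had no counterpart in those lists. The hexokinase gene Hk1 was at 1.699 at E14.5 and at 1.19 (0.71 to 2.06) at E13.5, where the interval included 1.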
